A study of Homo sapiens with 2 samples.

Results

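The 10 histone lysine methyltransferase genes studied here were examined for NUDT21 peaks, and 114 of the 20499 peaks of the NUDT21 eCLIP-seq list lay in 9 of these 10 genes. The members were KMT2A, KMT2B, KMT2C, KMT2D, SETD1A, SETD1B, SETD2, NSD1, NSD2 and EZH2, and a peak was given to a gene when its midpoint lay in the gene body of GENCODE release 44. NSD1 was the gene without a peak. KMT2D held 38 peaks and KMT2A 23, and these 61 peaks were 53.5% of the total. With the coding sequence taken first, 91 of the 114 peaks lay in coding sequence, 12 in a 3'UTR and 9 in an intron. Each of the 114 was listed with a false discovery rate (FDR) of 1, although a q-value threshold of 0.05 is stated for the peak calling.

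The study mapped the RNA contacts of NUDT21 to ask whether this factor acts directly on the 3' ends of transcripts. NUDT21 belongs to the cleavage factor I complex, in which it reads the RNA letters UGUA upstream of poly(A) sites. The cells were J-Gamma1, a Jurkat-derived line of T-ALL (acute lymphoblastic leukemia of T cells), with no further allele or agent given in the labels. One library was made with a NUDT21 antibody and 1 was an input library, each a single sample from the same line. Both came from cells crosslinked by UV-C (254 nm, 400 mJ per exposure), kept in lysis buffer for 15 min and digested for 5 min with RNase I (40 U). Peaks of the antibody library were analysed, and the input library was not analysed here. With 1 library there was no replicate check and no test, and every comparison below is a description of this library. The depth is unknown, because the list gives called peaks and no read totals.

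Of 15 T-cell markers, 4 held a peak, namely CD3E, CD247, ZAP70 and PTPRC, with 13 peaks together. This share was not above the 33.4% of all protein-coding genes that held a peak. Among 5 B-cell markers CD79B held 1 peak, and none of the 5 myeloid or 4 epithelial markers held any. All the other T-cell markers were without a peak, among them the lineage-defining CD3D, CD3G, LCK and TRAC. The list therefore does not show the labelled T-cell identity.

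Histone lysine methyltransferases place methyl groups on the tails of histone H3 and so mark the activity of the chromatin around them. KMT2A and KMT2B, SETD1A and SETD1B are the catalytic subunits of complexes that methylate lysine 4 near promoters, and KMT2C and KMT2D do so mainly at enhancers. SETD2 places the trimethyl mark on lysine 36 behind elongating RNA polymerase, NSD1 and NSD2 place the dimethyl mark there, and EZH2 is the enzyme of Polycomb repressive complex 2, which marks silent genes on lysine 27. KMT2A is rearranged in acute leukemias, and EZH2 and SETD2 are recurrently altered in T-ALL.

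The sequences of the highest coding peaks are shown first, to let the letters under each be read against UGUA. The highest peak of a gene is the one with the largest deposited fold enrichment, the ratio of pileup to local background. They are hg38 sequence 5' to 3' on the gene strand, in lower case, with each TGTA (UGUA in RNA) in capitals; the KMT2D line alone uses capitals differently. For the genes listed next the whole highest coding peak is given, and none of these 3 holds the motif.
KMT2A, exon 33, chr11:118519975-118520039, plus strand: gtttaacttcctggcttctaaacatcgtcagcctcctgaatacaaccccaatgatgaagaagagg
SETD1A, exon 15, chr16:30980524-30980640, plus strand: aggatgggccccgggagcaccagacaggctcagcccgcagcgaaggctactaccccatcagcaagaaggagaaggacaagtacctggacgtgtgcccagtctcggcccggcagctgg
SETD1B, exon 6, chr12:121810465-121810556, plus strand: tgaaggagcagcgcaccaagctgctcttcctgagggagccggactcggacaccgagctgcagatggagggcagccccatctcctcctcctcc

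The highest peak of all members lay in exon 11 of KMT2D, an exon with many repeated words. In its sequence the capitals mark bases inside a 12-letter word that occurs again in the same exon, and TGTA is absent.
KMT2D, exon 11, chr12:49051895-49051956, minus strand: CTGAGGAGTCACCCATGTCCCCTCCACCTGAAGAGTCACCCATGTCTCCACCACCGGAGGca

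For 5 further genes the central 30 bases of the highest peak are given, since these exons also belong to a 3'UTR of some transcript or the peak runs into one. None of these windows holds TGTA. The whole KMT2C peak, of which only the centre is shown, holds 2 copies, and the other 4 whole peaks hold none.
KMT2B, exon 3, chr19:35721470-35721499, plus strand: cccctgtggtcaccactcctgttaaggccg
KMT2C, exon 36, chr7:152181996-152182025, minus strand: gccatcccctgtcagagatttatgttcttc
SETD2, exon 12, chr3:47084186-47084215, minus strand: caacacacctgatccttccaccaagctgag
NSD2, exon 17, chr4:1959552-1959581, plus strand: gagaatccttgtggctttgattcggagtgt
EZH2, exon 20, chr7:148807635-148807664, minus strand: agaaatggaaatcccttgacatctgctacc

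Nearly all of these genes held a peak, and longer genes held one more often than genes in general. The members were chosen with earlier results of these data known. Their shares below therefore describe this choice of genes and do not test whether methyltransferase genes hold peaks more often. A peak lay in 9 of the 10 members (90%, exact Clopper-Pearson 95% interval 55.5 to 99.75%, counting error only), where 33.4% of the 19396 protein-coding genes held one. Among the 4197 genes with a coding sequence at least as long as that of EZH2, the shortest of the members, the share was 49.4%. That set is not matched in length, since its median coding length was 3204 bases beside 7890 for the members. An exonic peak was present in 9 members, beside 22.6% of all protein-coding genes. A coding peak was present in the same 9 members, beside 13.9%, and a 3'UTR peak outside coding sequence in 6, beside 11.2%. Of the 4197 longer genes, 1476 held an exonic peak, 1112 a coding peak and 637 a 3'UTR peak outside coding sequence. The list does not measure how much RNA each gene makes, and the part of RNA abundance in these counts was not tested.

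The deposited list gives a fold enrichment, the ratio of pileup to local background, and a Score that rises in whole steps of 0.228, called steps here. The unit of the Score is not stated, and steps are used as a second measure of a peak beside the fold enrichment. Of the 114 peaks, 104 had 5 or more steps (91.2%, interval 84.5 to 95.7%), against 42.3% of the whole list. The median fold enrichment of the member peaks was 2.28, with a range of 1.171 to 3.13, beside 1.61 for the 19528 peaks in other protein-coding genes. This gap was not seen when coding peaks alone were set side by side, since the 91 of the members and the 6239 of other genes both had a median of 2.37 and of 8 steps. None of the 114 peaks had an FDR under 0.05, where 0.0927% of the list did. The lowest deposited p-value was 3.05e-05, at the KMT2A peak of exon 33.

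**Figure D1:**
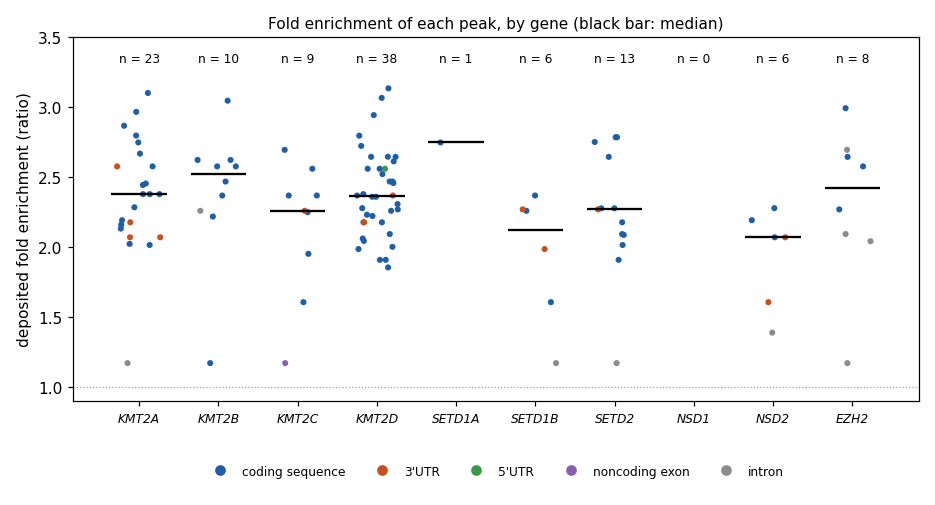
Deposited fold enrichment (vertical axis, ratio) of each of the 114 peaks by gene, with points coloured by region (coding sequence first) and black bars at the median. The medians lie between 2.07 in NSD2 and 2.75 in SETD1A, which has a single peak, and the lowest points, at 1.171, lie mostly in introns.

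The number of peaks followed coding length more than gene length. Over the 10 genes, Spearman's rho was 0.614 between peaks and coding length and -0.05 between peaks and the length of the gene body. These genes are few and share 1 library, so both values are descriptions. SETD2 held 13 peaks, KMT2B 10, KMT2C 9, EZH2 8, SETD1B 6, NSD2 6 and SETD1A 1. Among genes with a peak the median was 2 peaks, or 3 for those with a coding sequence as long as EZH2's.

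KMT2D, the lysine 4 methyltransferase of enhancers, ranked 4 of 19396 genes by number of peaks. Its 38 peaks had 5 to 12 steps with a median of 8, and a fold enrichment of 1.85 to 3.13 with a median of 2.36. No peak lay in an intron: 35 were in coding sequence, 2 in the 3'UTR and 1 in the 5'UTR of exon 1. They covered 21.0% of its 16611 coding bases and were found in 17 of 55 exons. The peaks thus ran along the message from codon 190 to codon 5435.

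In KMT2D the large exons held most of the peaks. Exon 11 (chr12:49050886-49052424, 1539 bases) held 6 peaks that covered 48.99% of it, and exon 40 (chr12:49031175-49033964, 2790 bases) held 6 that covered 14.9%. Exon 32 held 5, and exons 12, 35 and 49 held 3 each. The peak shown above, in exon 11, had a fold enrichment of 3.13 and 12 steps, and the next highest of the gene, in exon 40, had 3.06 and 11 steps. Repeated words were frequent in exons 11 and 40: 25.2% and 10.9% of their 12-letter words recurred in the same exon, beside at most 1.92% in the other long coding exons of the members. The peaks did not all sit on them. In exon 11, 52.8% of peak bases lay in a repeated word beside 73.2% outside the peaks, and in exon 40 the shares were 22.6% and 18.6%. How reads from such repeats were placed is not given in the sources used here, and its part in the counts was not tested.

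KMT2C is the close relative of KMT2D and has a coding sequence of 14733 bases, but it held 9 peaks. Its coding peaks numbered 0.475 per kb of coding sequence beside 2.11 per kb in KMT2D, and all 9 peaks together covered 5.82% of the coding bases. Of the 7 coding peaks, 2 lay in exon 36, 2 in exon 43 and 1 each in exons 14, 51 and 52. The highest by fold enrichment, in exon 36, had 2.69 and 8 steps, the exon 52 peak had 2.56 and 9 steps, and the lowest of the gene, in a noncoding exon, had 1.171 and 1 step. Parts of KMT2C have copies elsewhere in the genome, and the part of reads shared with those copies was not tested.

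KMT2A and KMT2B, the promoter-bound pair, both carried their peaks in clusters. KMT2A held 23 peaks, of which 18 were coding, 4 in the 3'UTR and 1 in an intron. Of the 18, 10 lay in exon 27 (chr11:118502398-118506646), which spans 4249 bases, and covered 33.1% of it at 7 to 10 steps. A further 3 lay close together in exons 32 and 33, with 5, 7 and 10 steps. The peak of exon 33 was the highest of the gene, with a fold enrichment of 3.10. The other large exon of KMT2A, exon 3 with 2654 bases, had no peak.

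KMT2B showed the opposite arrangement along the message. Of its 9 coding peaks, 7 lay in exon 3 (chr19:35719784-35721804), where they covered 33.2% of 2021 bases and had 6 to 10 steps. These peaks fell between codons 238 and 791, whereas the exon 27 peaks of KMT2A fell between codons 2178 and 3340. The highest KMT2B peak, in exon 3, had a fold enrichment of 3.04 and 10 steps. Exon 28 of KMT2B, with 1294 bases, had none. KMT2B had 1.10 coding peaks per kb and KMT2A 1.51.

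Of the SETD1 pair, the catalytic subunits of the complexes that methylate lysine 4 broadly at promoters, SETD1A held 1 peak and SETD1B 6. The SETD1A peak, in exon 15 at codons 1483 to 1522, had a fold enrichment of 2.75 and 10 steps. Exon 14 of SETD1A, its only coding exon of 1 kb or more, had none. SETD1B held 2 peaks in exon 6 with 6 and 7 steps, 1 in exon 12 with 3 steps, 2 in the 3'UTR and 1 in an intron. Its highest peak had a fold enrichment of 2.37, lower than the single peak of SETD1A.

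SETD2, the enzyme of the trimethyl mark on lysine 36, held 13 peaks, 11 of them coding. Of these 11, 7 lay in exon 3, the longest coding exon of the members with 4367 bases, at 6 to 10 steps. Another 2 lay in exon 12 with the same fold enrichment of 2.78 and 9 steps each, and exons 20 and 21 held 1 coding peak each of 8 steps. A further peak lay in the 3'UTR with 7 steps, 202 bases before an annotated transcript end. The intron peak had a single step.

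NSD1 and NSD2, the enzymes of the dimethyl mark on lysine 36, differed from each other. NSD1 held no peak along 168.4 kb of gene body and 8088 coding bases, and its long coding exons 5 (2560 bases) and 23 (1625 coding bases) were without one. A list of called peaks gives no level for a gene without a peak. NSD2 held 6 peaks, with 3 coding peaks in exons 4, 12 and 17 of 6, 8 and 7 steps. The highest by fold enrichment, in exon 17, reached 2.28. A further 2 NSD2 peaks, chr4:1940847-1940894 with 6 steps and chr4:1945088-1945290 with 3 steps, lay in introns of the canonical transcript and in 3'UTRs of shorter protein-coding transcripts, with coding sequences of 1887 and 1941 bases.

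EZH2 is the shortest of the members, and its peaks were dense for its length. Its 4 coding peaks gave 1.78 per kb of its 2253 coding bases, with 7, 8, 10 and 10 steps in exons 2, 5, 10 and 20. The highest, chr7:148807604-148807694 with a fold enrichment of 2.99, ran from codon 736 across the stop codon into the 3'UTR. The other 4 peaks lay in introns by their midpoints, more than in any other member, and 3 of them overlapped a coding exon. All peaks of the gene together, those 3 included, covered 22.3% of the coding bases. Of these, 2 were 409 bases long each and started 476 bases apart (chr7:148826624-148827032 and chr7:148827100-148827508), with 5 and 8 steps. A start-to-start distance of 476 bases was the most common between neighbouring peaks of the whole list, where 2001 pairs had it. This EZH2 pair was the only one among the members, so 2 of 114 peaks (1.75%, interval 0.213 to 6.19%) had a partner at that distance, beside 19.6% in other protein-coding genes. The share was also low in DNA replication genes (2.5%), partners in the same complexes (5.2%) and chromatin remodelling genes (5.88%). It was 18.5% in lysine demethylases and 20.8% in other lysine methyltransferases.

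**Figure D2:**
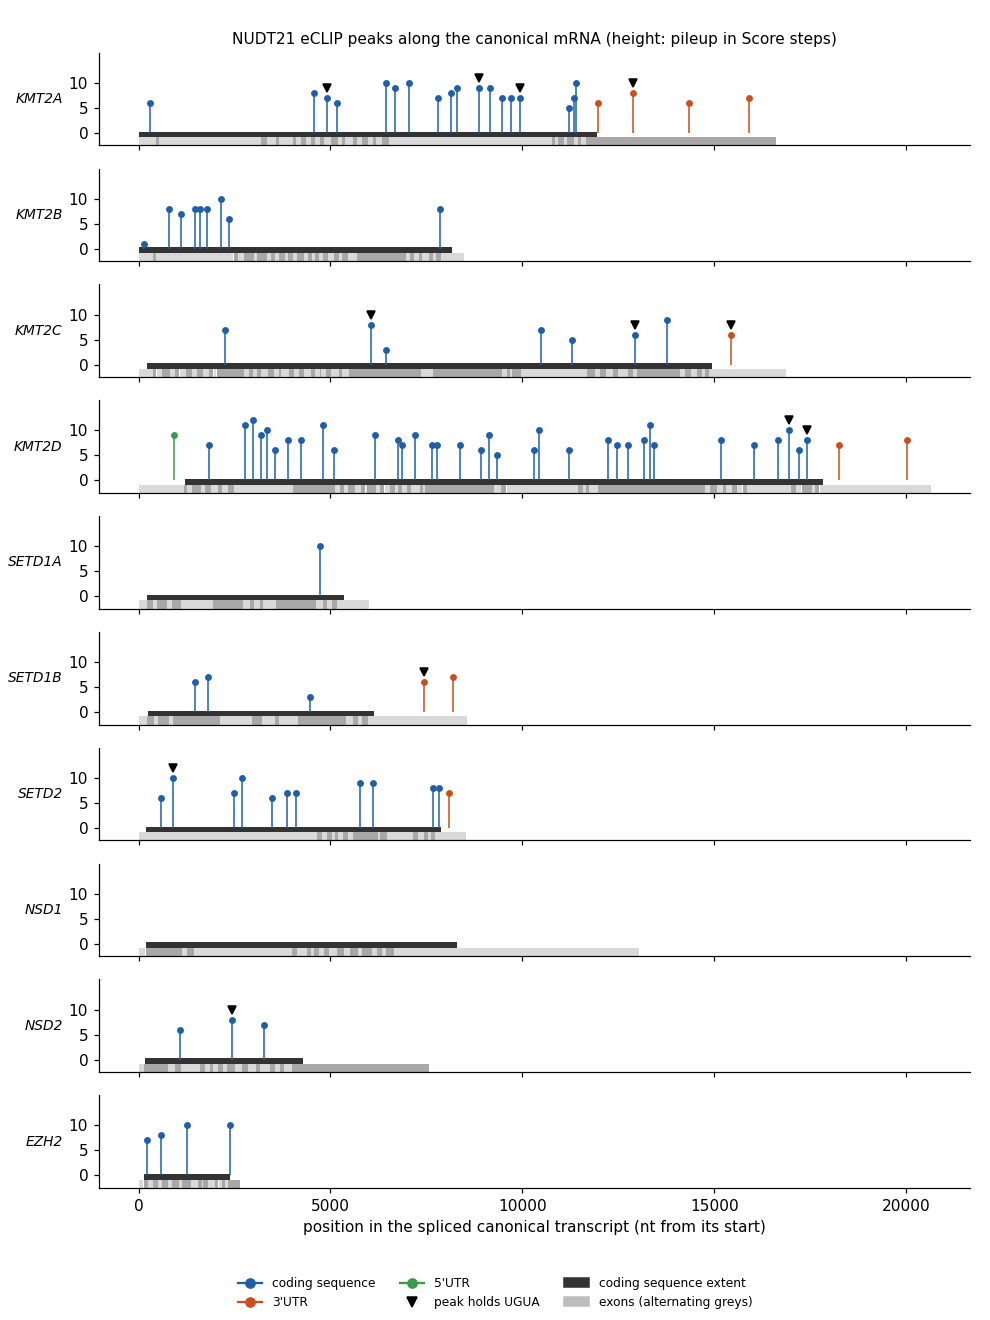
Peaks with midpoints in canonical exons, drawn along the spliced canonical transcript of each gene (horizontal axis, nt from its start), with the height in Score steps. Black bars show the coding sequence, alternating greys the exons and triangles the peaks that hold UGUA. The 35 coding peaks of KMT2D spread along the message, the 10 peaks of KMT2A exon 27 and the 7 of KMT2B exon 3 form clusters, and NSD1 is empty.

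The region given to these peaks depended on how overlapping transcripts were treated. When a 3'UTR of any transcript was taken first, 52 of 114 peaks were 3'UTR (45.6%, interval 36.3 to 55.2%) and 51 were coding (44.7%, 35.4 to 54.3%). Of those 52, 40 lay in the coding sequence of the canonical transcript, inside the 3'UTR of another transcript of the same gene. With coding sequence first, 91 were coding (79.8%, 71.3 to 86.8%) and 12 were 3'UTR (10.5%, 5.56 to 17.7%). In other protein-coding genes, by the same order, 31.9% were coding and 19.96% were 3'UTR. In the other genes with a coding sequence at least as long as that of EZH2 the shares were 43.4% and 12.7%. With a 3'UTR first, 22.3% were coding and 28.95% were 3'UTR in other protein-coding genes. The 3'UTR share of the members was thus above that of other protein-coding genes with a 3'UTR first, and below it with coding sequence first. Of the other 11 member peaks, 1 lay in a 5'UTR, 1 in a noncoding exon and 9 in introns (7.89%, 3.67 to 14.5%), beside 41.8% in other genes and 39.2% in the long ones. The 2 lists of other nuclear genes used for comparison had shares nearer to the members. Coding peaks made up 67.6% (61.7 to 73.2%) of the 272 peaks of chromatin remodelling genes. They made up 72.5% (61.4 to 81.9%) of the 80 peaks of DNA replication genes. Both intervals overlap that of the members, which is a description and no test, since peaks of 1 gene are not independent.

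**Figure D3:**
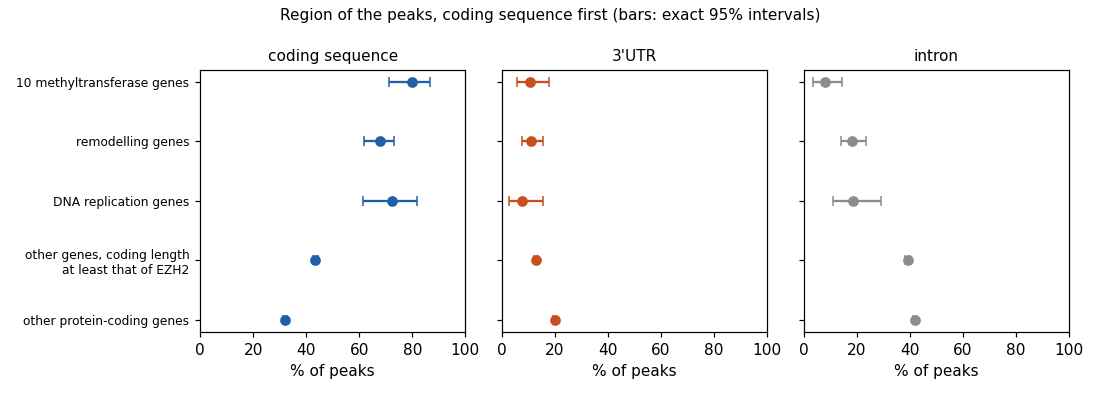
Share of peaks (horizontal axes, %) in coding sequence, 3'UTR and intron for the 10 methyltransferase genes and 4 comparison sets, with coding sequence taken first and bars for exact 95% intervals of counting error. The members are at 79.8% coding, 10.5% 3'UTR and 7.89% intron, and other protein-coding genes at 31.9%, 19.96% and 41.8%.

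Long exons held a large part of the coding peaks. The members have 20 exons with 1 kb or more of coding sequence, and 14 of them held a peak. This was 70%, or 57.1% without KMT2D, beside 47.0% of such exons in other protein-coding genes with a peak. The 20 long exons of the members held 58 of the 91 coding peaks (63.7%, interval 53.0 to 73.6%). The density was 1.48 peaks per kb in the long exons and 0.726 per kb in the 283 shorter ones. Without KMT2D it was 1.11 and 0.614 per kb. In other protein-coding genes with a peak the densities were 0.567 and 0.417 per kb, in the same order at a lower level. The long exons without a peak were KMT2A exon 3, KMT2B exon 28, KMT2C exon 38, SETD1A exon 14 and NSD1 exons 5 and 23. Of the 91 coding peaks, 80 lay whole within exons and 11 reached into an intron.

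**Figure D4:**
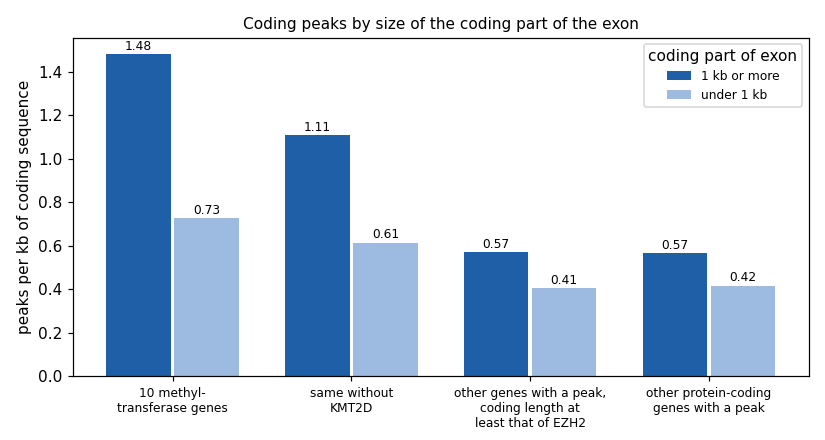
Coding peaks per kb of coding sequence (vertical axis) in exons with 1 kb or more of coding sequence (dark) and with less (light), for the members, the members without KMT2D and 2 sets of other genes with a peak. The dark bar is higher than the light bar in all 4 sets, with 1.48 and 0.73 per kb in the members.

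UGUA, the letters that NUDT21 recognises, was less frequent in these peaks than elsewhere in the list. On the gene strand 20 of 114 peaks held it (17.5%, interval 11.1 to 25.8%), with 33 copies in 7 genes, beside 44.5% of the peaks in other protein-coding genes. Motif content differs by region and peak length, so coding peaks were also set against coding peaks. Of the 91, 9 held UGUA (9.89%, interval 4.62 to 17.9%), against 21.3% of the 6239 coding peaks in other genes. On the opposite strand, which serves as a control sequence of the same place, 20 of 91 held it (22.0%), beside 26.5% in other genes.

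Within the members' own coding sequence the peaks also held fewer copies of the motif per kb than the sequence around them, on few copies. The canonical coding sequence held 1.10 UGUA per kb inside peaks and 1.99 per kb outside, beside 2.13 and 2.35 in other genes with a peak. The counts were 11 copies inside and 148 outside. Over the coding exons of all transcripts the ratio of the densities was 0.554, and its interval of 0.271 to 1.02 includes equal density. KMT2D alone held 0.573 and 0.839 per kb, from 2 and 11 copies, at nearly the same GC content of 60.2% and 60.1%. KMT2C and NSD2 ran the other way, each on few copies. KMT2C had 3.501 per kb inside and 2.95 outside, from 3 and 41 copies, and NSD2 4.88 and 1.54, from 1 and 6 copies. By gene, 5 peaks with the motif lay in KMT2A, 4 in KMT2C, 3 in NSD2, 3 in EZH2, 2 in KMT2D, 2 in SETD1B and 1 in SETD2, and none in KMT2B or SETD1A. In EZH2, 3 of the 4 intron peaks held it, with 7 copies, and no EZH2 coding peak did. Of the 9 intron peaks of all members, 6 held it. These intron peaks were longer, with a median length of 409 bases beside 84 for the coding peaks of the members. No share for intron peaks of other genes is given here, so the count is not read as particular to the members.

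The 3' ends are where NUDT21 is known to act, and 10 peaks in 5 genes lay in a canonical 3'UTR. These were 4 in KMT2A, 2 in KMT2D, 2 in SETD1B and 1 each in KMT2C and SETD2. Of the 10, 3 held UGUA, 2 lay within 150 bases of an annotated transcript end on either side and 5 within 300. With coding sequence first, 4 of the 12 peaks of a 3'UTR held UGUA (33.3%, interval 9.93 to 65.1%), beside 49.5% in other protein-coding genes. No value over other genes is given here for nearness to an end. The KMT2A peak at chr11:118523022-118523209, with a fold enrichment of 2.57 and 8 steps, held 3 copies, and the nearest annotated end downstream was 766 bases away. The KMT2C peak at chr7:152136272-152136443, with 2.26 and 6 steps, held 2 copies and lay 44 bases before an annotated end. In SETD1B, the peak at chr12:121831524-121831571 had 6 steps and 1 copy, 1037 bases before the nearest downstream end.

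The windows around these sites show the motif as it lay in the message, with TGTA in capitals. The last 2 KMT2A windows overlap and show the same closely spaced pair.
KMT2A 3'UTR, chr11:118523010-118523039, plus strand: agttccctgagccTGTAagcactccaggtg
KMT2A 3'UTR, chr11:118523114-118523143, plus strand: ttaaagaaacataTGTAgcatgatttTGTA
KMT2A 3'UTR, chr11:118523127-118523156, plus strand: TGTAgcatgatttTGTAggagaggaaaaag
KMT2C 3'UTR, chr7:152136407-152136436, minus strand: gccttcctatgaaTGTAagactgaaatcac
KMT2C 3'UTR, chr7:152136287-152136316, minus strand: actgaacaaggaaTGTActgaaatgacttc
SETD1B 3'UTR, chr12:121831511-121831540, plus strand: cagaaccaacttcTGTAtatagaggctgcc

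KMT2D held the motif only in coding peaks, in exons 49 and 52, of 10 and 8 steps. Both sites are given for comparison with those of the 3'UTRs. Neither KMT2D peak of the canonical 3'UTR, of 7 and 8 steps, held UGUA.
KMT2D exon 49, chr12:49026227-49026256, minus strand: ggcggccggagttTGTAatcaaagtcatcg
KMT2D exon 52, chr12:49022716-49022745, minus strand: tggaagaacaacgTGTAcctggctcgctcc

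The list gives no strand, and 11 of the 114 peaks also lay in the body of another gene. Of these, 8 were KMT2A peaks within ENSG00000285827 or TTC36-AS1, an antisense gene, and included the peak of exon 33 and all 4 of the 3'UTR. The other 3 were KMT2D peaks within ENSG00000288710. For these peaks the gene of origin cannot be told apart.

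Other genes of the same pathways held peaks as well. Of 25 other lysine methyltransferases 18 held a peak, with 96 peaks in all, and most exonic peaks in SETD5 with 14, KMT2E with 13 and DOT1L, the lysine 79 methyltransferase, with 8. Coding peaks were 54.2% of those 96 (43.7 to 64.4%) and 39.6% lay in introns, so the intron share of the 10 members was lower. Of 24 partners in the same complexes 18 held a peak, with 77 peaks, and most exonic peaks in SUPT6H, an elongation factor, with 11, PSIP1, which tethers the KMT2A complex to chromatin, with 9 and PAXIP1 with 7. Of 16 lysine demethylases, the enzymes that remove these marks, 12 held a peak, with 54 peaks, and most exonic peaks in KDM5A with 8, JMJD1C with 7 and KDM5C with 4. Chromatin remodelling genes held a peak in 25 of 28, with 19 exonic peaks in SRCAP, 17 in SMARCA4 and 17 in CHD3. DNA replication genes held one in 13 of 20, with 21 exonic peaks in DNMT1, 12 in TOP2A and 6 in RFC1. UGUA was found in 44.8% of the peaks of the other methyltransferases, 36.4% of the partners', 37.0% of the demethylases', 28.7% of the remodelling genes' and 28.75% of the replication genes'. The members, at 17.5%, were below each of these lists, and without KMT2D they were at 23.7%. The lists differ in their shares of coding and intron peaks. In coding peaks alone the members had 9.89% (4.62 to 17.9%). The partners had 13.5% (4.54 to 28.8%), the demethylases 15% (3.21 to 37.9%), the remodelling genes 17.4% (12.2 to 23.7%) and the replication genes 19.0% (9.87 to 31.4%). These intervals overlap that of the members, and the other methyltransferases, at 30.8% (18.7 to 45.1%), lay above it. The intervals count peaks of 1 gene as independent, so their overlap or separation is no test. KMT2D alone gave 35 of the 91 coding peaks of the members, and only 2 of these 35 held UGUA. The share in coding peaks without KMT2D is not given here.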

How the data were processed

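The authors made 1 antibody library, trimmed reads with fastp, removed duplicates by molecular identifier and ribosomal reads, mapped to hg38 and called peaks with MACS2 at a stated q-value of 0.05 with local windows of 1000 and 10000 nt. The aligner and the control of the peak calling are not given in the sources used here. The deposited list gives a fold enrichment (a ratio), a p-value, an FDR and a Score of unstated unit. The FDR column does not match the stated threshold, since it is under 0.05 for 19 of 20499 peaks and 1 for all member peaks, and how the listed peaks were selected is not settled here. The deposited Score rises in whole steps of 0.228 (largest misfit of a Score to whole steps 0.0059).

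Peaks were assigned to genes by midpoint, with GENCODE 44 regions for non-readthrough protein-coding genes. A peak in several such genes counts once in each. The main order put a 3'UTR of any transcript first, and coding sequence first and the canonical transcript alone were alternatives. The 6 peaks outside the main chromosomes stayed in the counts over the whole list of 20499 peaks. TGTA was counted on the gene strand. Shares have exact 95% intervals that cover counting error only. Peaks of a gene share its RNA and are no replicates, so no p-value was computed. All 10 members were named, with the highest peak of each, and of each other list the 3 genes with most exonic peaks. The members and lists were chosen with earlier results of these data known. The counting returned the right answer in all 661 simulated cases. Intervals came from scipy 1.17.1, sequences were read with pysam 0.24.0, and tables and plots were made in Python 3.11.15 with pandas 2.3.3, matplotlib 3.10.9 and numpy 2.4.6. The alternatives were limits on FDR, fold enrichment and steps, merging within 100 nt, the transcript order, other windows and motifs, and leaving out KMT2D or peaks shared with another gene.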

Additional observations from a re-analysis of the deposited data

How the results depend on the processing

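No paired analysis was possible because the list holds a single library. Of 58 alternative values for 10 results, 45 stayed within the interval, the spread between peaks or 1.5-fold of the main value, 13 moved and none reversed. An FDR under 0.05 left 0 of 114 peaks, so no share could be given there. The 3'UTR share of 45.6% became 10.5% with coding sequence first, 10.5% without decay and retained-intron transcripts and 8.77% with 1 transcript per gene, and the coding share of 44.7% became 79.8% under all 3. The share of peaks with UGUA, 17.5%, became 10.5% for UGUAA or UGUAU, 9.65% in the central 100 nt and 36.0% with peaks extended by 50 nt. The covered share of the members' coding sequence over all transcripts, 11.5%, became 10.9% for peaks of 5 or more steps, 9.25% without KMT2D and 11.8% with 1 transcript per gene. Without KMT2D the peaks numbered 76. UGUA density in exonic peaks over the exonic sequence outside was 0.388 (interval 0.233 to 0.610), beside 0.876 in other genes with an exonic peak. The exonic sequence outside includes UTRs, while most of the peaks were coding. Its alternatives ran from 0.383 to 0.601, and the highest was the opposite strand, the control sequence (interval 0.382 to 0.901). With coding exons only the ratio was 0.554, and its interval of 0.271 to 1.02 includes equal density. Depth is unknown, and 1 replicate leaves no measure of reproducibility.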
